A study of Mus musculus with 2 samples.

Results

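The genes described here are those of redox control: the NRF2 system, the glutathione and thioredoxin pathways, the enzymes that remove peroxide and superoxide, the pentose phosphate enzymes that supply NADPH, and the metallothioneins. The list names 42 genes. Of these, 37 had at least 1 probe set that carried their symbol alone, out of 11807 such genes on the array, and 33 of the 37 were above a background floor on at least 1 array. Keap1, Prdx5, Prdx6, G6pdx and Mt2 were not analysed here.

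The study holds 2 microarrays of CD4+ T cells. Female C57BL/6J mice gave naive cells from lymph nodes and spleen, and plate-bound antibodies to CD3 and CD28 activated them for 60 h, either with no added cytokine or with 25 ng/ml of recombinant mouse IL-27, and the question was what IL-27 induces. IL-27 is a cytokine related to IL-12. Both groups received the same activating antibodies, and each is 1 array made from 100 ng of RNA, with no replicate. The labels do not say how many animals or cultures each RNA came from. All values therefore compare 2 hybridizations, no test was possible, and having 1 array a group limits how precise any value can be.

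T cells need a large supply of reducing power once they are activated. Glutathione, a tripeptide made by the ligase of Gclc and Gclm and then by Gss, is oxidized when it removes peroxide and is reduced again by glutathione reductase, Gsr. Thioredoxin does the same work through a small protein in place of a peptide, and both cycles draw on NADPH, much of it from the pentose phosphate pathway. NRF2, the product of Nfe2l2, switches on many of these genes through antioxidant response elements, KEAP1 marks it for destruction, and BACH1 competes with it for the same DNA sites. Metallothioneins are small cysteine-rich proteins that bind zinc and copper.

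Values are intensities on a linear scale, 1 per probe set and array, and a difference is the log2 intensity on the array that the labels call IL-27-treated (the IL-27-labelled array) minus that on the one they call untreated (the untreated-labelled array). A gene stands by its probe set with the highest mean level. The floor was an intensity of 24.6, the 95th percentile of 50 genes of other tissues such as liver, pancreas and brain. A gene was called when its arrays were at least 2-fold apart, or, more loosely, 1.5-fold (0.58 on the log2 scale). For a gene under the floor on the dimmer array only a least fold is given, its brighter intensity divided by the floor, and none for a gene under it on both.

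The T cell identity of both arrays was visible in Cd4, at intensities of 343 on the untreated-labelled and 395 on the IL-27-labelled array, and in all 10 measured T cell markers, which were above the floor. Defining genes of B cells, granulocytes, dendritic cells, NK cells and red cells were mostly below it: of 7 B cell markers 1 was above, of 7 granulocyte markers 0, of 6 dendritic cell markers 1, of 7 NK markers 3 and of 9 erythroid and platelet markers 1. The 3 NK markers, which activated T cells can also express, were far apart, with Eomes at 32.8 and 290 and with Klrd1 and Gzma at 114 and 34.3 and then below the floor. Of the CD8 genes, Cd8a was below the floor on both arrays and Cd8b1 stood at 119 and 176. The part of such cells in the members' differences was not tested. Some known IL-27 responses ran against the labels. Socs3 stood at 1122 and 186 (a difference of -2.59), Il21 at 384 and 26.7 (-3.85), and Prdm1 at 190 and Il10 at 47.2, both below the floor on the IL-27-labelled array and so at least 7.70-fold and 1.92-fold lower, although IL-27 is known to raise all 4. Genes of the interferon-like response to IL-27 were mixed, with Psmb9 and Irf1 higher by 0.55 and 0.34 and Gbp2 at -0.43. Whether the sample labels are exchanged could not be settled from 1 array a group. Every direction, count and rank below follows the labels and would turn if they were. The beta-actin ratios of 3′ to 5′ signal were close, at 1.21 and 1.22, but the control probe sets for 18S ribosomal RNA were brighter on the IL-27-labelled array by 1.10 to 1.55 on the log2 scale, and the part of this in the differences was not tested.

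Most redox genes were alike on the 2 arrays, and a small set was lower on the IL-27-labelled array. Of the 33 members above the floor, 5 were at least 2-fold lower, namely Mt1, Gstm1, Glrx, Txnip and Hmox1, which is 15.2% against 2.73% of all 6882 genes above the floor. None of the 33 was at least 2-fold higher, against 1.5% of all genes. With the labels exchanged these would be 5 higher, against 2.73%, and 0 lower, against 1.5%. At 1.5-fold, 7 members were lower (Bach1 and Gsr being added), which is 21.2% against 7.28% of all genes. On the higher side was 1 member, Gclm, which is 3.03% against 5.14%. Gstm1 and Hmox1 exceeded the floor on the untreated-labelled array alone. Among the 31 members above it on both arrays, 3 were at least 2-fold lower, where 2.13% of all such genes were. Of the 33, 25 were within 1.5-fold, which is 75.8% against a larger share, 87.6%, of all genes. By any amount, 17 were higher and 16 lower, against 52.2% and 47.5% of all genes. The median over the 33 was 0.01 and that over all genes 0.02. The sign of the members' median turned under loess and under repeated quantile normalization.

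Probe sets of the same gene gave the only internal measure of error. Over 2244 genes with several probe sets above the floor, the brightest pair differed by a median of 0.16, and 90% by at most 0.44. Over the 14 members with such a pair the median was 0.13 and the largest gap 0.63, in Gstm1, and 13 of the 14 pairs had the same sign, Cat being the exception. This covers probe-level error only, not the variation between cultures.

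**Figure D1:**
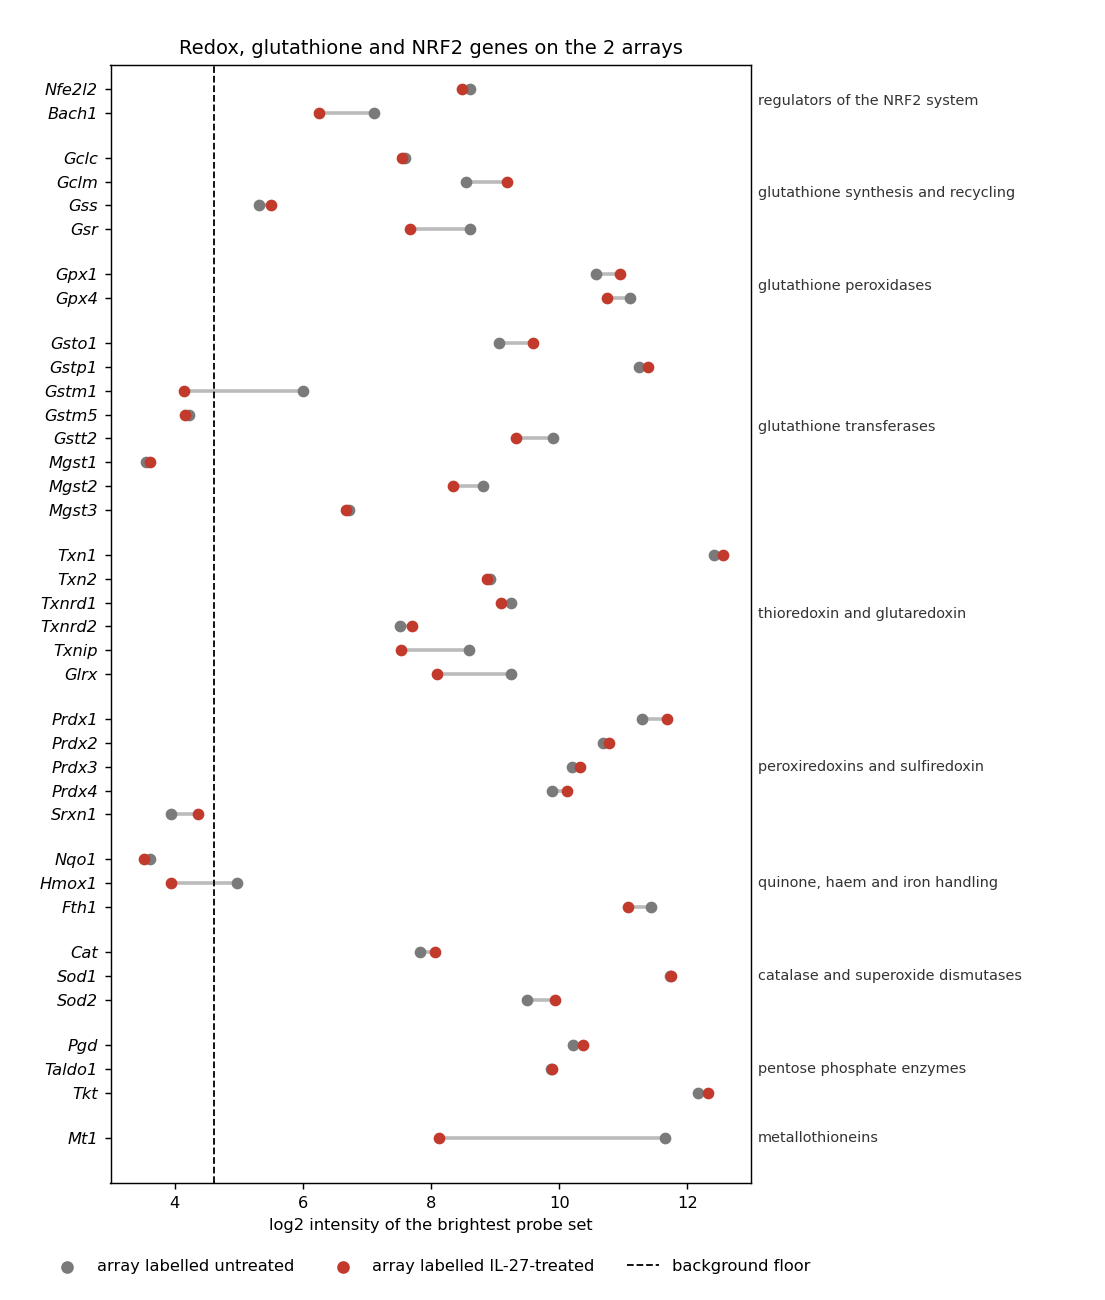
Log2 intensity of the brightest probe set of each of the 37 measured members, grouped by role, with a grey point for the untreated-labelled array and a red point for the IL-27-labelled array, 1 array each. The dashed line is the background floor at 4.62. Mt1 has the widest gap, from 11.65 to 8.13, while most pairs nearly coincide.

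Mt1, metallothionein 1, had the widest gap of all members. Its intensity was 3219 on the untreated-labelled array and 281 on the IL-27-labelled array, which is 11.5-fold lower, a difference of -3.52. Among the 6566 genes above the floor on both arrays it was the 5th lowest as labelled, and would be the 5th highest with the labels exchanged. Its probe set is of a type that can match several related transcripts. The other probe set of Mt1 was below the floor on both arrays, at 24.0 and 12.5, so it could not bear on the fold, and Mt2 was not analysed here. Metallothionein genes are known to respond to zinc, to glucocorticoids and, in liver, to cytokines of the IL-6 family through STAT3.

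The zinc response of metallothionein genes runs through the factor MTF1, which binds metal response elements. The stretch of the Mt1 promoter that holds such letters is shown because this gene carries the largest difference. It was taken from RefSeq (build GRCm38.p6, chr8:94179019-94179118, plus strand) and runs from 70 bases before the annotated start to 30 bases after it. Capitals mark the letters TGCACNC or TGCGCNC, searched on both strands.
Mt1: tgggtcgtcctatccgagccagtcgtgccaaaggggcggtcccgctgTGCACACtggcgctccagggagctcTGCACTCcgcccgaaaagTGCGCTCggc
The window of 300 bases around the start of Mt1 held 3 such matches, starting at -23, 3 and 21 from the start. At least 3 were found in 2.27% of 27025 genes with a promoter window, and at least 1 in 28.2%. Among genes above the floor a larger share, 41.2%, held at least 1, and the share with at least 3 was not taken there. Among those at least 2-fold lower 42.9% held at least 1 (63 of 147), and among those at least 2-fold higher 27.3% (21 of 77). Of 29 members above the floor with a window, 9 held at least 1, which is 31.0% against the 41.2%. Their median difference was -0.87, against 0.11 for the other members. The 9 include Mt1 itself and also Gclm, which had the largest positive difference of the members (0.65) and several matches. These letters were chosen for Mt1 after its value was seen, so the medians are no test, and the part of the letters in the differences was not tested.

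Other genes of metal handling were less far apart, with 0 of 13 above the floor past 2-fold in either direction. Mtf1 itself differed by -0.09 (71.5 and 67.2), and by 0.17 by its dimmer probe set. At 1.5-fold, 4 were lower (30.8%, against 7.28% of all genes) and 0 higher (against 5.14%). These were the zinc and metal importers Slc39a14 (156 and 87.1, a difference of -0.84) and Slc39a8 (168 and 101, -0.74), the zinc exporter Slc30a4 (693 and 436, -0.67) and Mt3, just above the floor at 25.3 and below it on the IL-27-labelled array, which is only at least 1.03-fold lower. Without Mt3 the count is 3. Slc30a1, a zinc exporter that MTF1 also drives, was below the floor on both arrays. The median of the 13 was -0.20. By any amount, 10 of the 13 were lower and 3 higher, against 47.5% and 52.2% of all genes. The 3 higher included an importer related to those above, Slc39a6 (401 and 535, 0.42), with 0.60 by its second probe set. The others were Slc31a1 (100 and 136, 0.43, and 0.05 by its second probe set) and Tfrc, the transferrin receptor (0.21).

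Among the regulators of the NRF2 system, Nfe2l2 was nearly level, at 392 and 359 (-0.13). Bach1, the haem-sensitive repressor of NRF2 targets, was lower on the IL-27-labelled array, at 138 and 75.9, a difference of -0.87 or 1.83-fold. The second probe set of Bach1 was below the floor on both arrays. The small Maf proteins, with which NRF2 and BACH1 both pair, differed in sign. Mafg stood at 211 and 163 (-0.38), Mafk at 41.2 and 61.2 (0.57), and Maff at 116 and 57.7 (-1.01, 2.01-fold lower). Of the 10 partners and adaptors above the floor, Maff was the only gene past 2-fold, and past 1.5-fold as well, with a median of 0.05 for the group.

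Direct NRF2 targets had no common direction. Nqo1, a quinone reductase, and Srxn1, the sulfiredoxin that repairs overoxidized peroxiredoxins, both standard readouts of NRF2 activity, were below the floor on both arrays, as was the cystine carrier gene Slc7a11 of the pathway list. Gclm was higher by 0.65, whereas Gclc and Txnrd1 were at -0.05 and -0.14. Hmox1, haem oxygenase 1, which releases iron from haem and is repressed by BACH1, was low on both arrays, at 31.5 and below the floor (15.4), which is at least 1.28-fold lower. It counts as 2-fold lower by measured values only. Hmox1 is also abundant in macrophages, and of 13 measured macrophage genes, Hmox1 among them, 3 were above the floor, with summed intensities of 240 and 198. The other genes above it were Cd68 (54.9 and 27.5) and Csf1r (26.2 and 24.4), while the defining genes Lyz2, Cd14 and Adgre1 were below it on both arrays. The part of such cells in the Hmox1 difference was not tested. In bulk RNA, fewer cells of a type and less RNA per cell cannot be told apart.

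The ferritin genes, which store the iron that haem oxygenase frees, were both somewhat lower on the IL-27-labelled array, Fth1 at 2763 and 2162 (-0.35) and Ftl1 at 1577 and 1358 (-0.22). All 12 further NRF2 targets above the floor were within 1.5-fold, as were 87.6% of all genes. By any amount, 4 were higher and 8 lower, against 52.2% and 47.5% of all genes, with a median of -0.13 for the 12. The amino acid transporter chain Slc3a2, among them, differed by -0.25, and Me1, malic enzyme, was below the floor on both arrays.

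The promoters of 3 members whose values differ are shown for letters that match an antioxidant response element. Whether these letters act as such elements was not tested. Capitals mark TGACNNNGC or its reverse complement, searched on both strands. The stretches come from RefSeq (build GRCm38.p6, plus strand), at chr3:122245377-122245476 for Gclm, chr4:116685419-116685518 for Prdx1 and chr10:82859068-82859167 for Txnrd1.
Gclm: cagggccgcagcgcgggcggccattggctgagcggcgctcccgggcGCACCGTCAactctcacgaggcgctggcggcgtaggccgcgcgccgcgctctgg
Prdx1: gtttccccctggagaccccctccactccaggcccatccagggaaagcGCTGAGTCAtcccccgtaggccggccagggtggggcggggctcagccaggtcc
Txnrd1: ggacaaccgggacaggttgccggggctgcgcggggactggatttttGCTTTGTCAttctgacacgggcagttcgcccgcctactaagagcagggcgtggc
Of 37 members with a promoter window, 11 held the letters, and of the 29 among them above the floor 6 did (20.7%), where the share was 16.7% over all genes above the floor. The 6 were Nfe2l2, Gclm, Txnrd1, Prdx1, Sod1 and Pgd, which differed by -0.13, 0.65, -0.14, 0.39, 0.01 and 0.18. Their median was 0.09, and that of the members without the letters also 0.09. Mt1, Gstm1, Glrx and Txnip are not among them, and Hmox1 was not analysed here for its promoter.

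In glutathione synthesis, Gclm, the modifier subunit of the rate-limiting ligase, stood at 371 on the untreated-labelled array and 582 on the IL-27-labelled array, 1.57-fold higher. It was the member with the largest positive difference, 0.65, at percentile 96.00 of all genes above the floor. The catalytic subunit Gclc was level at 195 and 188 (-0.05), and Gss, which adds the last amino acid, stood at 39.9 and 45.6 (0.19). The differences of the ligase subunits Gclm and Gclc lie further apart than the 0.44 that 90% of genes with several probe sets stay within. That measure covers probe-level error within a gene only, so it cannot show whether the subunits would differ between cultures. Each of these genes was read by a single probe set.

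Gsr, the NADPH-dependent enzyme that regenerates reduced glutathione, went the other way. Its intensities were 390 and 206 by the brighter probe set (-0.92, 1.89-fold lower) and 279 and 103 by the other (-1.44, 2.71-fold lower). The brighter probe set placed it just short of the 2-fold threshold, and the mean of the probe sets, -1.18, just past it.

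The glutathione peroxidases, selenoproteins that use glutathione to reduce peroxides, pointed in opposite directions. Gpx1, which acts on soluble peroxides, was 1.29-fold higher on the IL-27-labelled array (1532 and 1980, 0.37). Gpx4, which removes lipid peroxides and protects cells from ferroptosis, was 1.29-fold lower (2205 and 1713, -0.36), and by -0.22 with its other probe set. Both differences are inside the spread seen between probe sets of the same gene.

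Of the glutathione transferases, which attach glutathione to reactive compounds, 6 of 8 were above the floor. Gstm1 read 64.0 on the untreated-labelled array and was under the floor on the IL-27-labelled array, at least 2.60-fold lower, and its second probe set was at least 1.5-fold lower. Its remaining probe sets were below the floor on both arrays. Mu-class transferases are close relatives, and the design of the brighter Gstm1 probe set allows cross-hybridization. Gstm5 and the microsomal transferase Mgst1 were below the floor on both arrays.

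The theta-class gene Gstt2 stood at 965 and 643 (-0.58), just inside 1.5-fold. It was just past 1.5-fold under loess (-0.63) and under repeated quantile normalization (-0.60). Its relative Gstt1, not a member, stood at 195 and 36.1. That is 5.39-fold lower and the 15th lowest of the 6566 genes above the floor on both arrays. Gstt3 of the same class differed by -0.21. Gsto1, an omega-class enzyme with thiol transferase activity, was higher by 0.53 (535 and 769), and by 0.61 with its second probe set. Gstp1, which stood at 2428 and 2675, and Mgst3 were nearly level (0.14 and -0.06), and Mgst2 differed by -0.46. The median of the 6 was -0.26, and it came to -0.06 when genes under the floor on either array were left out.

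**Figure D2:**
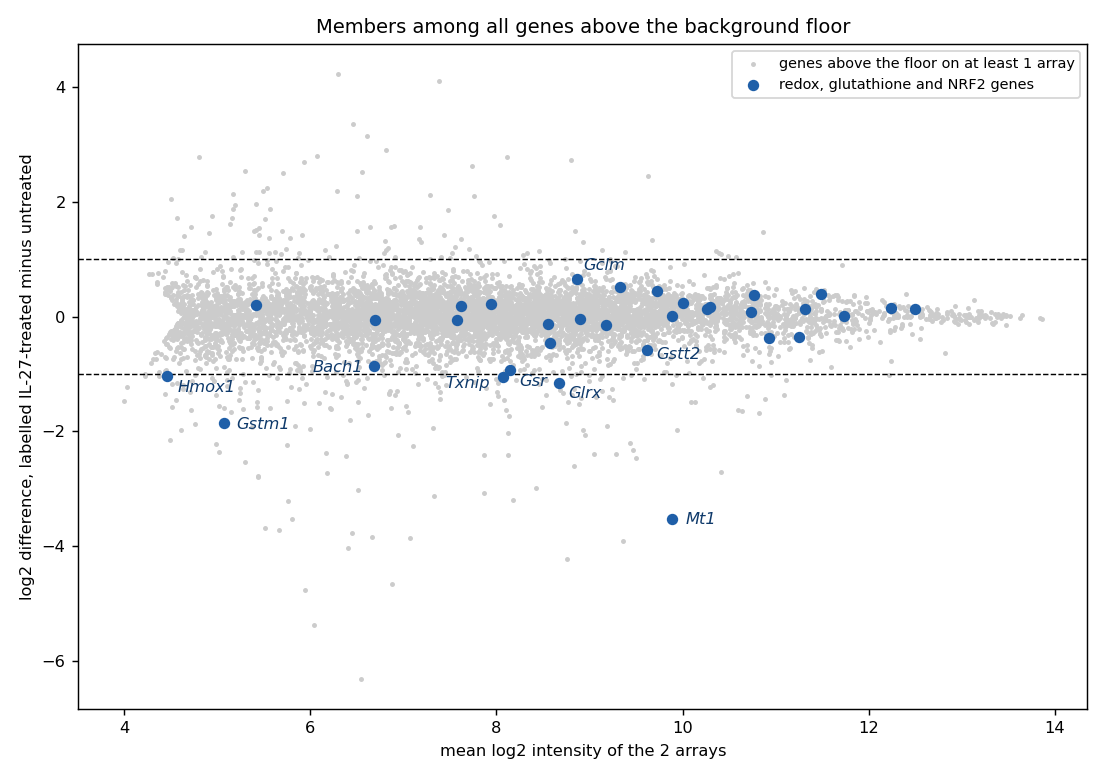
Log2 difference (IL-27-labelled minus untreated-labelled) against mean log2 intensity for the 6882 genes above the floor, in grey, and the 33 members among them, in blue. Dashed lines mark 2-fold. Mt1 lies far below the other members at -3.52, and no member lies above the upper line.

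Among the thioredoxin and glutaredoxin members, the thioredoxins and their reductases were nearly level, while Txnip and Glrx were lower on the IL-27-labelled array. Txn1, cytosolic thioredoxin, stood at 5493 and 6051 (0.14), and its mitochondrial counterpart Txn2 at 483 and 470 (-0.04), with its other probe sets at -0.07 and 0.24. The thioredoxin reductases Txnrd1 and Txnrd2 differed by -0.14 and 0.19. All of these lie within the spread between probe sets.

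Txnip, an arrestin-like protein that binds thioredoxin and restrains glucose uptake, was lower on the IL-27-labelled array by both of its probe sets. The brighter gave 386 and 186 (-1.05, 2.07-fold) and the dimmer 123 and 52.5 (-1.23, 2.35-fold). Txnip is known to be driven by glucose through MondoA and ChREBP, which bind carbohydrate response elements, and its promoter is shown for that site (RefSeq, GRCm38.p6, chr3:96557832-96557931, plus strand). Capitals mark 2 copies of CACGNG with 5 bases between them, searched on both strands.
Txnip: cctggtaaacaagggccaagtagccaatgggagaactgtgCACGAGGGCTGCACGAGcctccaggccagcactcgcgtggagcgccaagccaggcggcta
The match starts 85 bases before the annotated start. Of 27025 genes, 15 (0.0555%) held these letters in their window, and Txnip was the only member that did. Among genes above the floor 8 of 5675 held them, and among those at least 2-fold lower 1 of 147, Txnip itself. The letters were chosen for Txnip after its value was seen, so their presence there was no test.

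Glrx, the cytosolic glutaredoxin that removes glutathione from proteins, was lower by both probe sets as well, at 609 and 272 (-1.16, 2.24-fold) and at 532 and 190 (-1.49, 2.80-fold). The other glutaredoxins of the pathway list lay on the opposite side. Glrx2, which resides mainly in mitochondria, stood at 383 and 511 (0.42), with its other probe sets at 0.32 and 0.55. Glrx3, which handles iron-sulphur clusters, stood at 479 and 746 (0.64).

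**Figure D3:**
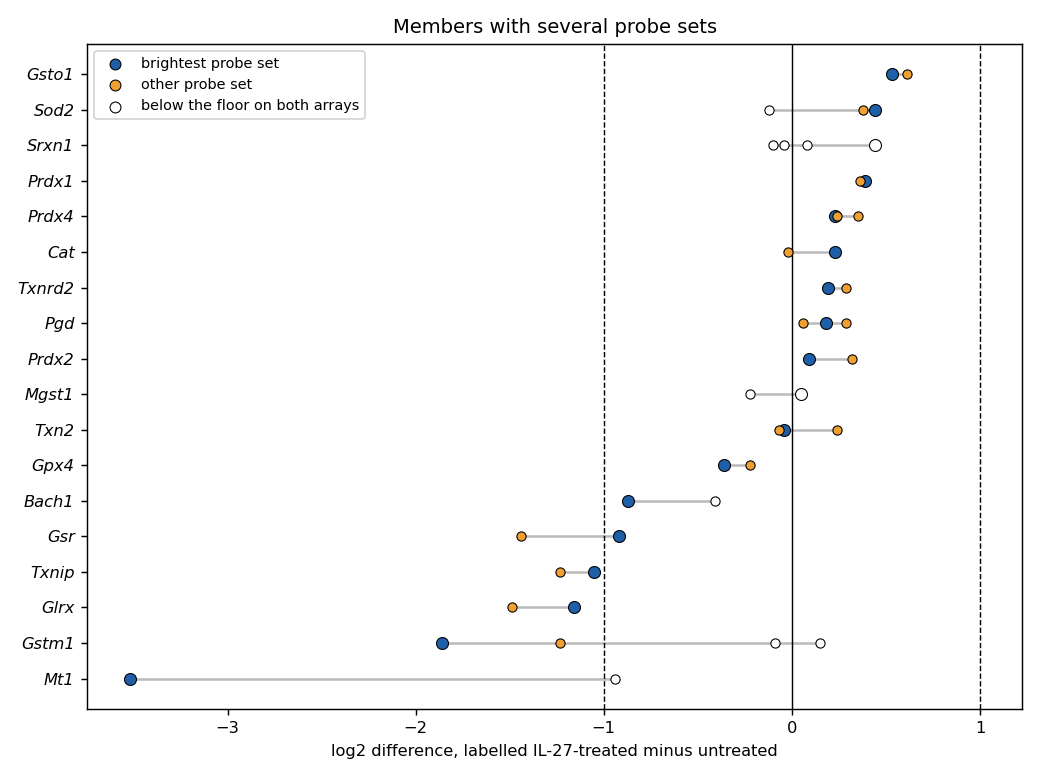
Log2 difference (IL-27-labelled minus untreated-labelled) of every probe set of the 18 members that have several. Blue points are the brightest probe set of a gene, orange ones the others and open ones those below the floor on both arrays, with dashed lines at 2-fold. All probe sets of Glrx and Txnip lie below -1, and those of Gsr at -0.92 and -1.44.

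The peroxiredoxins, thiol peroxidases that thioredoxin keeps reduced, were slightly higher on the IL-27-labelled array in each of the 4 genes above the floor. Prdx1 stood at 2501 and 3274 (0.39, and 0.36 by its second probe set), Prdx4 of the endoplasmic reticulum at 948 and 1113 (0.23), mitochondrial Prdx3 at 1177 and 1290 (0.13) and Prdx2 at 1649 and 1754 (0.09). All 4 were higher by some amount, where 52.2% of all genes were, and 0 reached 1.5-fold. Each difference is below the 0.44 within which most probe sets agree, and the direction of all 4 was kept under every scaling tried.

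Catalase and the superoxide dismutases were also within 1.5-fold. Sod2, the mitochondrial enzyme, stood at 726 and 984 (0.44, and 0.38 by its second probe set, with its dimmest probe set below the floor on both arrays). Cat, which splits hydrogen peroxide in peroxisomes, stood at 227 and 266 (0.23), and its other probe set was level at -0.02. Sod1, the cytosolic enzyme, stood at 3395 and 3421 (0.01), with a sign that turned under loess.

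In the pentose phosphate pathway, which makes NADPH and ribose, the members were nearly level. Pgd, which yields NADPH, stood at 1181 and 1334 (0.18, with its other probe sets at 0.29 and 0.06). Tkt and Taldo1, which rearrange sugars between this pathway and glycolysis, stood at 4605 and 5100 (0.15) and at 940 and 950 (0.02). The sign of Taldo1 turned under loess and under repeated quantile normalization. Among 7 further genes of NADPH and pentose supply above the floor, 6 were higher by some amount, against 52.2% of all genes, and their group median was 0.36. Mthfd1 (409 and 644, 0.65), a folate enzyme that can yield NADPH, and Rpia (602 and 922, 0.61), which makes ribose 5-phosphate, were past 1.5-fold, as were 5.14% of all genes on the higher side.

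Of sources of oxidants, Ero1a was the gene furthest apart. It encodes the oxidase that drives disulphide formation in the endoplasmic reticulum and releases hydrogen peroxide. It stood at 3222 and 1010 (-1.67, 3.19-fold lower), and its other probe sets gave -1.51 and -1.87. Cybb, the catalytic chain of the phagocyte NADPH oxidase, was below the floor on both arrays. Its partner chain Cyba stood at 2136 and 2745 (0.36).

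Across the pathway lists as a whole, 98 of 124 genes that are no members were measured and 76 were above the floor. Of these, 3 were at least 2-fold lower (Gstt1, Ero1a and Maff), which is 3.95% against 2.73% of all genes. None was at least 2-fold higher, against 1.5% of all genes. At 1.5-fold 8 were lower and 5 higher, 10.5% and 6.58%, against 7.28% and 5.14% of all genes. The median of the 76 was 0.02. Among the thiol and antioxidant genes, Sesn1, a sestrin, was higher by 0.75 by its brightest probe set (198 and 333), while its other probe sets stood at 97.3 and 194 and at 65.0 and 133, the last of them 2.04-fold higher, and the selenoprotein gene Selenow was lower on the IL-27-labelled array, at 289 and 174 (-0.73).

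**Figure D4:**
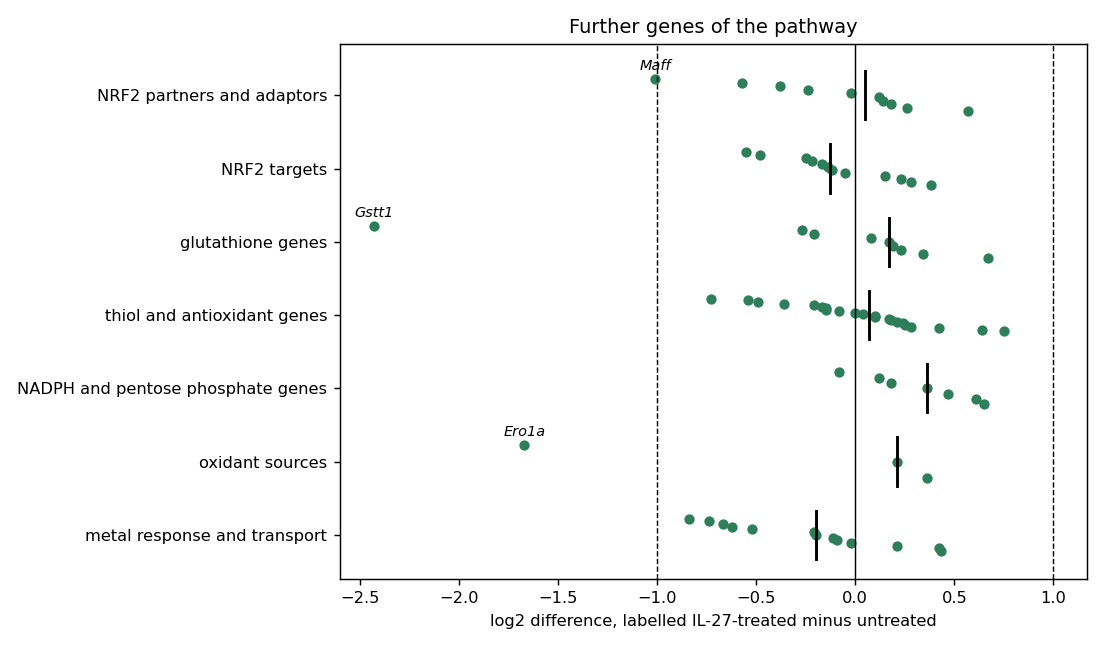
Log2 difference (IL-27-labelled minus untreated-labelled) of the 76 pathway genes above the floor that are not members, 1 point per gene, in 7 lists, with a black bar at each median and dashed lines at 2-fold. Gstt1, Ero1a and Maff are the only points at or beyond -1, and none reaches 1.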

How the data were processed

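The authors deposited linear intensities of 22716 probe sets, made with RMA per the submitters' processing notes. RMA removes background, forces the arrays to a shared distribution and condenses probes into probe sets; its version is not given in the sources used here. It hides any change in total RNA per cell and compresses dim differences. Per the labels' protocols, RNA was amplified with a 3′ kit.

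Only the 18003 probe sets with 1 gene symbol in the platform annotation were used, 63 of them for members. Entrez identifiers of all 37 measured members gave the same symbol in RefSeq. Log2 was taken without a pseudocount in Python 3.11.15 with pandas 2.3.3 and numpy 2.4.6, and loess used statsmodels 0.14.6. The calling procedure was tested on simulated data, with planted differences far above or far below 2-fold in genes well above the floor. It was not tested for dim genes, for differences near 2-fold or for variation between cultures. The floor rested on 50 of 61 listed genes of other tissues.

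Named were all measured members, pathway genes at least 2-fold apart and 13 pathway genes set by name, of which 1 is not analysed here. Other genes were picked after their values were seen, as were the motifs. Among such genes were Slc39a14, Slc39a8, Slc39a6, Slc31a1, Slc30a4, Mt3, Gstt3, Glrx2, Glrx3, Mthfd1, Rpia, Sesn1, Selenow and the label checks. The members and lists were chosen with earlier results of these data known.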

Additional observations from a re-analysis of the deposited data

Results flagged for a closer look

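The 3 control probe sets for 18S ribosomal RNA, which no comparison above used, were brighter on the IL-27-labelled array than on the untreated-labelled array, by 1.55 at the 3′ end (456 and 1336), 1.10 in the middle (292 and 626) and 1.22 at the 5′ end (575 and 1342) on the log2 scale. All 18 hybridization spike-in probe sets were also higher there, by 0.04 to 0.49 with a median of 0.20. The part of either in the members' differences was not tested. Groups of 1 array allow no search for outlying samples.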

How the results depend on the processing

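No paired analysis was possible because each group has 1 array. The count of members at least 2-fold lower was 3 when genes had to exceed the floor on both arrays and 3 with a pseudocount of 16, since Gstm1 and Hmox1, or Hmox1 and Txnip, then dropped out, and 4 after array medians were subtracted or dim values lifted to the floor. The shares of all genes in these settings were 2.13%, 1.99%, 2.49% and 2.44%, against 2.73% in the main setting. With the mean of probe sets the member count stayed at 5, with Gsr (-1.18) in place of Gstm1 (-0.76). The count of members at least 1.5-fold lower, 7 in the main setting, was 8 under loess and under repeated quantile normalization. It was 5 with both arrays above the floor and 6 with dim values raised. In these settings 542 of 6893, 497 of 6902, 411 of 6566 and 464 of 6882 genes were, against 501 of 6882 in the main setting. The metallothionein value was -2.23 with the mean of probe sets, which takes in the dim one. The transferase median was -0.06 without a filter, with both arrays above the floor or with the floor at the 75th percentile. The median for quinone, haem and iron genes, -0.69 over Hmox1 and Fth1, was -0.35 without a filter, with both arrays above the floor or with dim values raised, and -0.47 with the pseudocount. Of 385 values of single genes under alternatives, 373 moved by no more than the 0.16 by which probe sets typically disagree. A further 12 moved by more, and 0 called values turned their sign. Settings that change only which genes are kept could not move a single value. These were no filter, both arrays above the floor and the floor at the 75th percentile. Raising dim values could not move a gene above the floor on both arrays. Many of the 373 were therefore fixed in advance. Differences between dim genes and those under about 0.44 cannot be told from probe error on 2 arrays.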

Other observations

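Redox genes whose products reside in mitochondria were grouped after their values were seen. Of 8 above the floor, 6 were higher on the IL-27-labelled array by some amount, against 52.2% of all genes, 0 of them past 1.5-fold, and the group had a median of 0.27. Nnt, which makes mitochondrial NADPH from NADH, differed by 0.47, Sod2 by 0.44, Glrx2 by 0.42 and Idh2, another source of mitochondrial NADPH, by 0.36, while Msrb2, a methionine sulphoxide reductase, differed by -0.54. Selenoprotein genes, also grouped afterwards, had no common direction. Of 16 above the floor, 10 were higher and 6 lower by some amount, against 52.2% and 47.5% of all genes, with a median of 0.10. Selenow (-0.73) and Selenon (-0.65) were past 1.5-fold, as were 7.28% of all genes on the lower side.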
